A study of Homo sapiens with 12 samples.

Results

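The comparison described here is that of the NS1 line with the WT line of T24 cells when both had received the inducer, over all expressed genes. Its members are the libraries labelled with genotype NS1 or WT and with the treatment 5-Ad-IAA, 3 of each, which make 6 of the 12 libraries of the series. T24 cells are an established human line of bladder cancer origin. AlissAID is a degron method in which a small binding protein brings an untagged protein to a plant-derived, auxin-dependent ubiquitin ligase, and 5-Ad-IAA is the auxin analogue that turns the ligase on. The WT group is T24 with genotype WT and 5-Ad-IAA, and the NS1 group is T24 with genotype NS1 and 5-Ad-IAA, so both groups carry the compound and differ by the genotype label. The other 6 libraries are the same lines without treatment and serve only to show what the lines already differed in. The labels do not spell out NS1, the dose, the time, or whether the NS1 line is 1 clone. A monobody that binds RAS proteins carries the name NS1, but whether the label refers to it is not said.

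RAS proteins are membrane switches that, when loaded with GTP, pass growth factor signals through the kinases RAF, MEK and ERK to transcription factors of the ETS and AP-1 families. Cycling carcinoma cells with an active RAS pathway are known to express ERK feedback inhibitors, replication and mitosis genes, and inflammatory cytokines. The transcript table measures RNA only, so protein removal by the degron was not observed in it.

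Expression is given as CPM, the counts of a gene scaled for the size and the composition of its library. A log2 fold change is positive where the NS1 libraries were higher, and so are the values given with an SE or alone in brackets after a gene. Calls rest on edgeR's quasi-likelihood test over 17775 genes, at a threshold of 0.05 on the p adjusted by Benjamini-Hochberg. The libraries with inducer held between 11208873 and 20228022 counts, and each library of a group numbered 1 was the deepest. Of 14 leukocyte markers 10, and of 9 fibroblast markers 7, had at most 3 counts in every library with inducer. Of 10 endothelial markers 4 did, and of the 4 tested TIE1 (8.19 ± 3.86 and 1.62 ± 1.26 CPM, SD, n = 3; -2.20) and ROBO4 (-2.70) were called lower. Summed over the 10 markers the level was 7.03 to 14.4 CPM in WT and 4.8 to 6.31 CPM in NS1 libraries, and its part in the results was not tested. TIE1 lost its call without NS1 library 2 or 3 or WT library 2 (adjusted p 0.0525 to 0.0528). TIE1 had a log2 fold change of -3.16 without NS1 library 1. ROBO4 lost its call without NS1 library 1, 2 or 3 or WT library 2 or 3 (adjusted p 0.0672 to 0.192). ROBO4 had a log2 fold change of -3.30 without WT library 1. Among epithelial markers KRT7, KRT8, KRT18 and KRT19 were abundant in all 6 libraries while CDH1 (E-cadherin) had at most 1 count in each. The urothelial markers UPK3A and TP63 had no count in any of them, and GATA3 and PPARG were present in all. Along the first principal component of all 12 libraries, which carried 49.3% of the variance, the lines separated. The libraries numbered 1 lay apart from those numbered 2 and 3 along the next component, which carried 14.5%.

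With inducer, 5007 of 17775 genes were called between the lines (28.2%), 2426 higher (13.6%) and 2581 lower (14.5%) in NS1 cells. At least 2-fold changes made up 1494 of these calls (8.41% of genes tested), 874 higher and 620 lower. Scaling by library totals alone gave a split of 1863 higher to 3182 lower. Without the libraries numbered 2 the calls were 1632, and without those numbered 3 they were 2127. In the lists that follow, the range in brackets after a count of calls is over 9 fits that each left out 1 of the 6 libraries or all libraries of 1 replicate number. Median list values stand beside the median over all genes tested, which was -0.0036. Counts of calls with inducer in a list are to be set beside 13.6% higher and 14.5% lower over all genes. For the interaction of line and inducer, 2196 of the 17775 genes had an unadjusted p under 0.05 in edgeR's unblocked test. DESeq2 called 377 genes for it, and list counts of the interaction are to be set beside these. The labels do not say whether replicates came from separate cultures, so p-values measure only the spread between these libraries.

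HRAS RNA was lower in NS1 cells, and so were ETS-family and feedback genes known to follow ERK activity. HRAS (ENSG00000174775.17, chromosome 11) stood at 194, 218 and 226 CPM in WT libraries 1 to 3 and 158, 145 and 166 CPM in NS1 libraries 1 to 3 (log2 fold change -0.44, SE 0.14, adjusted p 0.0335), and the groups did not overlap. NRAS (ENSG00000213281.5, chromosome 1) went the other way, from 72.0 ± 9.68 to 101 ± 16.3 CPM (SD over n = 3 libraries; log2 fold change 0.49, SE 0.15, adjusted p 0.0284). The untreated difference was -0.21 for HRAS and 0.41 for NRAS, neither of them called. HRAS lost its call without NS1 library 1, 2 or 3 or WT library 2 or 3 (adjusted p 0.0588 to 0.113). NRAS lost its call without NS1 library 1 or WT library 2 or 3 (adjusted p 0.0888 to 0.117).

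Among 20 genes of the RAS and MAP kinase core, 7 (2 to 7) were called higher and 2 (0 to 3) lower, with a median of 0.15. Those called higher included MRAS, a RAS relative, at 0.950, 1.48 and 0.720 CPM in WT libraries 1 to 3 and 10.4, 6.11 and 6.89 CPM in NS1 libraries 1 to 3 (log2 fold change 2.89, SE 0.35, adjusted p 9.35e-05). SHOC2, which with MRAS forms part of a phosphatase complex acting on RAF, was higher by 0.53 (SE 0.13), and SOS2, an exchange factor that loads RAS with GTP, by 0.74 (SE 0.15). The lower pair was HRAS and the adaptor GRB2 (-0.44, SE 0.10). The count of higher calls was 4 without NS1 library 1 and 4 without WT library 2.

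Of 19 tested transcripts used as readouts of ERK activity, 9 (4 to 14) were called lower and 1 (1 to 2) higher, and the median was -0.57 against -0.08 in the untreated lines. ETV4 (ENSG00000175832.13, chromosome 17), an ETS transcription factor induced by ERK, had 25.2, 35.8 and 37.3 CPM in WT libraries 1 to 3 and 5.25, 7.68 and 5.90 CPM in NS1 libraries 1 to 3 (log2 fold change -2.39, SE 0.20, adjusted p 7.22e-06). No NS1 library reached the lowest WT value. ETV1, of the same family, fell by 1.55 on the log2 scale and ETV5 fell by 0.57. DUSP6, a phosphatase that acts on ERK, fell from 81.2 ± 12.9 to 35.9 ± 0.572 CPM (SD over n = 3 libraries; log2 fold change -1.18, SE 0.17, adjusted p 0.000333), and FOSL1, an AP-1 subunit stabilised by ERK, from 246 ± 47.6 to 95.2 ± 5.48 (log2 fold change -1.37, SE 0.19, adjusted p 0.000197). PHLDA1 (-1.16) and EGR1 (-1.46) were also lower. The cyclin CCND1, the most abundant of the list in both groups, had 951 ± 285 and 1004 ± 106 CPM (adjusted p 0.827), and the receptor EPHA4 was called higher (1.73). The ERK readouts were lower relative to the untreated difference in 18 of 19 genes. None of the 19 was called in edgeR's unblocked interaction test of line and inducer. In that test 10 had an unadjusted p under 0.05, and DESeq2 called 7. Over all 17775 genes tested these counts were 2196 and 377. Adding a replicate block inside each line gave an interaction called lower for 14 of 19, beside 7.06% of all genes. The block rests on same-numbered untreated and treated libraries of a line, of which those numbered 1 stood apart while those numbered 2 and 3 resembled each other about as well across numbers as within them. EGR1 had a log2 fold change of -2.08 without NS1 library 1. EPHA4 had a log2 fold change of 1.06 without NS1 library 1.

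Genes of DNA replication and mitosis were lower together, and all of them had a negative log2 fold change. Of 38 replication genes 35 (26 to 34) were called lower, with a median of -0.93, and of 35 mitosis genes 35 (24 to 35), with a median of -0.79. In the untreated lines the medians were -0.26 and -0.11, with 5 and 8 genes called lower. The CMG helicase subunit MCM7 (ENSG00000166508.17, chromosome 7, 100092728 to 100101940), which unwinds DNA at the fork, had 280.4, 227 and 231 CPM in WT libraries 1 to 3 and 69.8, 83.5 and 89.0 CPM in NS1 libraries 1 to 3 (log2 fold change -1.61, SE 0.13, adjusted p 5.47e-06). Exons of MCM7 and AP4M1 overlap, and reads there could belong to either gene. MCM10, which helps to start the helicase, had a log2 fold change of -1.54, the primase subunit PRIM1 of -1.43 and the polymerase alpha subunit POLA2 of -1.43. RRM2, the regulated subunit of ribonucleotide reductase that makes deoxynucleotides, had 418, 461 and 439.5 CPM in WT libraries 1 to 3 and 149.5, 227 and 216 CPM in NS1 libraries 1 to 3 (log2 fold change -1.16, SE 0.15, adjusted p 0.000143), and no values of the groups overlapped.

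Among mitosis genes the kinase AURKB (ENSG00000178999.13, chromosome 17), part of the chromosomal passenger complex, had 53.8, 65.9 and 65.1 CPM in WT libraries 1 to 3 and 18.5, 19.8 and 22.7 CPM in NS1 libraries 1 to 3 (log2 fold change -1.600, SE 0.14, adjusted p 7.97e-06). SPC25, a kinetochore protein, changed by -1.35 (SE 0.13). ANLN, which organises the contractile ring, changed by -1.27 (SE 0.11), and UBE2C, the ubiquitin-conjugating enzyme of the anaphase-promoting complex, by -1.23 (SE 0.13). MKI67, the proliferation marker Ki-67, moved less, from 457 ± 64.3 to 312 ± 54.8 CPM (SD over n = 3 libraries; log2 fold change -0.55). 35 of 35 mitosis genes had groups that did not overlap, as did 43.4% of all genes tested. Relative to the untreated lines the difference was lower for all 38 replication and all 35 mitosis genes. None of these was called in edgeR's unblocked interaction test, in which 31 and 35 had an unadjusted p under 0.05 and DESeq2 called 7 and 23. With the replicate block within each line 35 and 35 were called lower, beside 7.06% of all genes. MKI67 lost its call without NS1 library 2 or 3 or WT library 3 (adjusted p 0.0606 to 0.132).

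**Figure D1:**
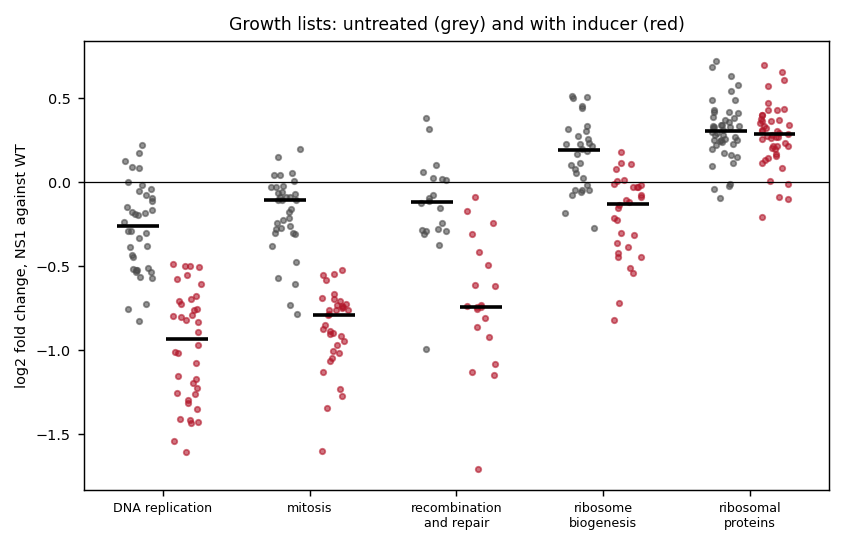
Log2 fold change of NS1 against WT for each gene of 5 growth lists, untreated (grey) and with inducer (red), with the list median as a bar. Every replication and mitosis gene lies below 0 with inducer, ribosome biogenesis crosses from a median of 0.19 to -0.13, and ribosomal proteins have medians near 0.3 in both.

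Promoters of these genes carry the letters of known cell cycle elements, and a stretch of the most lowered bearer in each list is shown because the members moved together. E2F sites of replication genes were searched as TTTGGCGC, TTTCGCGC or TTTCCCGC, and the CHR element of mitotic genes as TTTGAA or TTCGAA, on both strands of the 250 bases before each start site in RefSeq (GRCh38.p14). The E2F letters stood in 15 of 33 replication promoters found in the table (45.5%), in 2 of 29 mitosis promoters (6.90%) and in 3.91% of the promoters of genes tested. The CHR letters stood in 17 of 29 mitosis promoters (58.6%), 2 of 33 replication promoters (6.06%) and 9.73% of those of genes tested. Capitals mark the letters searched, and a promoter with overlapping matches counts once.
MCM7, chr7:100101398-100101487, minus strand: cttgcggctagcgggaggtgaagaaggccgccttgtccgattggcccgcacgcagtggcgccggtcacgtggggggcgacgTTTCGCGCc
SPC25, chr2:168890591-168890680, minus strand: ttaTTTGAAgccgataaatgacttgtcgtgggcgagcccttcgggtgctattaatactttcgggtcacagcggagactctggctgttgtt
A match describes the letters only, and no binding was measured. The MCM7 stretch adjoins a RefSeq start site that lies inside the span of MCM7 printed above. That span comes from another annotation (GENCODE 29).

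Homologous recombination and repair genes were lower as well: all 20 had negative values and 14 (8 to 15) were called, with a median of -0.74. The helicase BLM fell from 26.4 ± 2.60 to 12.1 ± 1.25 CPM (SD over n = 3 libraries; log2 fold change -1.13, SE 0.13, adjusted p 7.56e-05), the recombination gene XRCC2 had a log2 fold change of -1.15 and the nuclease EXO1 of -1.08. In the cell cycle exit list 6 (1 to 6) of 15 genes were called higher and 2 (0 to 3) lower, beside 13.6% and 14.5% of all genes. Its median was 0.02 (-0.06 to 0.20 over the alternatives). CDKN1C, which encodes the CDK inhibitor p57, had 1.61, 2.08 and 1.89 CPM in WT libraries 1 to 3 and 52.9, 17.2 and 19.1 CPM in NS1 libraries 1 to 3 (log2 fold change 4.02, SE 0.60, adjusted p 0.000364), every NS1 value above every WT value. CCNG2, a cyclin of resting cells, was higher by 0.95 (SE 0.25) and CDKN1B, which encodes p27, by 0.39 (SE 0.10). CDKN1A, the p53-induced inhibitor p21, stood at 88.3 ± 33.0 and 89.4 ± 5.37 CPM (adjusted p 0.971), and its sign depends on the scaling. CDKN1C had a log2 fold change of 3.30 without NS1 library 1.

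Of 18 p53 targets 3 (2 to 3) were called higher and 5 (2 to 5) lower. The DNA damage sensor DDB2 changed by -1.65 (SE 0.13) and the ferredoxin reductase FDXR by -0.89 (SE 0.20), while PHLDA3, an AKT inhibitor, was higher by 0.92 (SE 0.16). Without NS1 library 3, WT library 2 or WT library 3 the lower calls among p53 targets were 3. Of 14 genes of the BCL2 family 2 (1 to 4) were called higher and 2 (0 to 3) lower, with a median of -0.08 (-0.19 to 0.02 over the alternatives). It included BMF (ENSG00000104081.14, chromosome 15), a pro-apoptotic BH3-only protein, at 0.807, 1.56 and 1.17 CPM in WT libraries 1 to 3 and 27.1, 13.4 and 17.1 CPM in NS1 libraries 1 to 3 (log2 fold change 4.07, SE 0.29, adjusted p 2.77e-06). BCL2L11 (BIM), another BH3-only gene known to be held down by ERK, was higher by 0.59 (SE 0.14) and the anti-apoptotic BCL2A1 lower (-4.16, SE 0.98; 3.13 ± 2.08 and 0.143 ± 0.101 CPM, SD, n = 3). BAD, a further pro-apoptotic member, was also lower (-0.58, SE 0.14). Of the other members the abundant BCL2L1 (0.22, adjusted p 0.315) and MCL1 (-0.24, adjusted p 0.163) were not called. BCL2A1 had a log2 fold change of -5.00 without NS1 library 1.

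Interferon-stimulated genes were largely lower in untreated NS1 cells, and most were not called with inducer. Untreated, 34 of 46 were called lower, beside 7.05% of all genes, and the median was -0.99. With inducer 7 (1 to 8) were called lower and 4 (1 to 15) higher, beside 14.5% and 13.6% of all genes. The median with inducer was -0.11 (-0.22 to 0.24 over the alternatives). OAS2 (ENSG00000111335.12, chromosome 12, 112978395 to 113011723), which senses double-stranded RNA, had 47.0, 43.1 and 40.6 CPM in WT libraries 1 to 3 and 17.1, 52.1 and 63.1 CPM in NS1 libraries 1 to 3 with inducer (log2 fold change 0.01, adjusted p 0.994), against an untreated log2 fold change of -1.98 (adjusted p 0.00923). NS1 library 1 lay below the WT libraries and NS1 libraries 2 and 3 lay above them. MX1, an antiviral GTPase, went from -2.15 untreated to 0.57 with inducer (adjusted p 0.517), and IFI44L from -1.74 to 1.004 (adjusted p 0.0859). Genes that stayed lower were ISG20, an RNA exonuclease (32.7 ± 14.7 and 9.74 ± 1.77 CPM, SD over n = 3 libraries; log2 fold change -1.75, SE 0.39, adjusted p 0.0049), and HERC5, the ligase that attaches ISG15 (-1.05). Higher were the guanylate-binding proteins GBP2 at 2.94, 6.16 and 5.67 CPM in WT libraries 1 to 3 and 10.1, 18.2 and 21.3 CPM in NS1 libraries 1 to 3 (log2 fold change 1.77, SE 0.37, adjusted p 0.00317) and GBP1 (1.75). Without NS1 library 1 the list gave 5 higher and 5 lower calls, and without all libraries numbered 1 it gave 15 and 8. Lower calls were 4 without NS1 library 2 or WT library 1, and higher calls were 2 without NS1 library 2 or 3 or WT library 3.

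The difference with inducer exceeded the untreated one in all 46 interferon-stimulated genes. None was called in edgeR's unblocked interaction test, where 33 had an unadjusted p under 0.05 and DESeq2 called 12. With the replicate block within each line 39 of 46 were called, all higher, beside 6.98% of all genes in that direction. The block estimate was 1.92 for OAS2 (adjusted p 1.28e-05), 2.74 for MX1 (adjusted p 6.68e-06) and 2.68 for IFI44L (adjusted p 2.14e-05). The ISRE core GAAANNGAA, read on both strands, stood in 20 of 36 promoters of the list (55.6%) and in 5.54% of those of genes tested. The bearer of the largest block estimate is shown with the letters in capitals (RefSeq, GRCh38.p14).
IFI44L, chr1:78620345-78620434, plus strand: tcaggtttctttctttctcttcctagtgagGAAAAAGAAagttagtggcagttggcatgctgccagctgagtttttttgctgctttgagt

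MHC class I presentation genes showed the same order in their medians, -0.35 untreated and 0.04 (-0.07 to 0.16 over the alternatives) with inducer, with 3 (0 to 3) of 22 called lower and 1 (0 to 4) higher. The immunoproteasome subunit PSMB9 had 23.9, 22.8 and 21.6 CPM in WT libraries 1 to 3 and 8.47, 11.6 and 15.2 CPM in NS1 libraries 1 to 3 (log2 fold change -0.97, SE 0.23, adjusted p 0.00656). PSMB9 shares exon positions with PSMB8. The peptide transporter subunit TAP2 changed by -0.43 (SE 0.11) and the proteasome activator PSME2 by -0.53 (SE 0.13). HLA-B was at 117 ± 8.05 and 115 ± 24.6 CPM (SD over n = 3 libraries; adjusted p 0.943) with inducer and at a log2 fold change of -0.63 (adjusted p 0.0167) untreated. HLA genes resemble each other, and how reads of several positions were counted is not given in the sources used here. The ISRE core stood in 7 of 18 promoters of this list (38.9%) and in 5.54% of those of genes tested.

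Of 21 cytokines and chemokines the called genes were mostly lower in NS1 cells, with list medians of -1.93 with inducer and -2.02 untreated. By library number 1, 2 and 3 the medians with inducer were -0.43, -2.07 and -1.84, smallest in number 1. With inducer 8 (2 to 16) were called lower and 2 (0 to 3) higher. IL1B (ENSG00000125538.11, chromosome 2, 112829751 to 112836903), the secreted inflammatory cytokine, had 63.0, 323 and 304 CPM in WT libraries 1 to 3 and 11.5, 15.4 and 13.9 CPM in NS1 libraries 1 to 3 (log2 fold change -4.08, SE 0.65, adjusted p 0.000578). WT library 1 lay far under the other WT libraries and still above all NS1 libraries. CXCL8 (interleukin-8), a neutrophil attractant, changed by -2.43 (SE 0.53), CXCL5 by -3.29 (SE 0.84) and IL1A by -2.89 (SE 0.56). CSF3 (G-CSF), which drives granulocyte production, had 3.80, 70.0 and 45.6 CPM in WT libraries 1 to 3 and 0.260, 0.698 and 0.830 CPM in NS1 libraries 1 to 3 (log2 fold change -6.15, SE 1.30, adjusted p 0.00361). The monocyte factor CSF1 (0.90) and IL18 (0.75) were the genes called higher. Without WT library 1 the lower calls were 15. CSF3 had a log2 fold change of -5.43 without WT library 2. CSF1 lost its call without NS1 library 2 or 3 or WT library 1 or 3 (adjusted p 0.0606 to 0.116).

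Among 16 NF-kB targets, which include feedback inhibitors, the inhibitor NFKBIA was not called (-0.07, adjusted p 0.859) and 2 (1 to 6) were called lower, CXCL8 and IER2 (-0.98). The list median was -0.07 (-0.33 to 0.05 over the alternatives), and -0.49 untreated. Among 13 complement genes the membrane inhibitor CD55 was lower (124 ± 11.6 and 62.3 ± 11.6 CPM, SD over n = 3 libraries; adjusted p 0.000246), with 3 (1 to 4) lower and 2 (0 to 3) higher calls.

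Targets of TGF-beta and BMP signalling were higher in NS1 cells, 14 (9 to 15) of 21 called higher, with medians of 0.96 with inducer and 0.67 untreated. The ligand TGFB2 (ENSG00000092969.12, chromosome 1) had 13.9, 7.64 and 7.02 CPM in WT libraries 1 to 3 and 106, 210.3 and 181 CPM in NS1 libraries 1 to 3 (log2 fold change 4.09, SE 0.37, adjusted p 1.12e-05), so the lowest NS1 library exceeded the highest WT library several-fold. BMP2, a ligand of the BMP branch, was higher by 2.74 (SE 0.50). SMAD7, the inhibitor that closes the feedback loop, had 7.08, 5.56 and 4.41 CPM in WT libraries 1 to 3 and 33.8, 30.2 and 26.9 CPM in NS1 libraries 1 to 3 (log2 fold change 2.39, SE 0.21, adjusted p 8.73e-06), and SMAD6, its BMP counterpart, changed by 1.78 (SE 0.53). ID3, a transcription inhibitor that follows BMP signals, changed by 1.57 (SE 0.25) and the secreted matrix protein TGFBI by 2.72 (SE 0.17). SMAD6 lost its call without NS1 library 2 or 3 or WT library 2 or 3 (adjusted p 0.0503 to 0.0873). SMAD6 had a log2 fold change of 2.81 without WT library 1.

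The list of YAP and TEAD targets was mostly higher, 13 (6 to 13) of 24 called higher and 4 (1 to 4) lower, with a median of 0.56 (0.35 untreated). It also holds YAP1, WWTR1 and TEAD genes themselves, and TGFB2 belongs to it too. The 4 called lower were NT5E, AMOTL1 (-0.44), WWTR1 (-0.43, adjusted p 0.0495) and FJX1 (-0.37). ANKRD1 (ENSG00000148677.6, chromosome 10, 90912096 to 90921276), a stretch-responsive target, had 25.1, 20.4 and 15.7 CPM in WT libraries 1 to 3 and 45.2, 107 and 111 CPM in NS1 libraries 1 to 3 (log2 fold change 2.09, SE 0.38, adjusted p 0.00151). CCN2, a matricellular protein, had 119.5, 222 and 215 CPM in WT libraries 1 to 3 and 383, 577 and 607 CPM in NS1 libraries 1 to 3 (log2 fold change 1.49, SE 0.27, adjusted p 0.00149), and CCN1, its relative, changed by 0.91 (SE 0.25). NT5E, the ectonucleotidase CD73, went the other way at 56.0, 95.8 and 92.2 CPM in WT libraries 1 to 3 and 24.5, 28.2 and 28.1 CPM in NS1 libraries 1 to 3 (log2 fold change -1.59, SE 0.23, adjusted p 0.000324). Lower calls were 1 without NS1 library 3 and 2 without WT library 3. The TEAD letters GGAATG stood in 7 of 19 promoters of the list (36.8%) and in 9.58% of those of genes tested; the stretch of TGFB2, the most raised bearer, reads them on the other strand (RefSeq, GRCh38.p14). CCN1 lost its call without NS1 library 2 or WT library 1 (adjusted p 0.0534 to 0.058).
TGFB2, chr1:218345121-218345210, plus strand: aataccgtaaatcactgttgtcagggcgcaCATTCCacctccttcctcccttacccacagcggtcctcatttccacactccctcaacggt

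WNT pathway genes had 10 (4 to 10) of 17 called higher and 2 (0 to 3) lower, with a median of 0.56. LEF1, a transcription factor that acts with beta-catenin, changed by 2.52 (SE 0.58) from a low level (0.380, 0.445 and 0.180 CPM in WT and 3.02, 1.40 and 1.495 in NS1 libraries), and SP5, a direct target, by 1.63 (SE 0.41). LGR5 and WNT5A, a receptor and a ligand of the pathway, changed by 2.89 (SE 0.76) and 2.29 (SE 0.64). CTNNB1, beta-catenin itself, changed by 0.56 (SE 0.11) and LGR4, a receptor for R-spondins, by -0.45 (SE 0.15). LGR5 had a log2 fold change of 5.72 without WT library 1. WNT5A lost its call without NS1 library 1 or WT library 1 or 2 (adjusted p 0.0513 to 0.0826). LGR4 lost its call without NS1 library 2 or 3 or WT library 1, 2 or 3 (adjusted p 0.068 to 0.145).

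Among 17 matrix glycoproteins and crosslinking enzymes 7 (4 to 10) were called higher, with a median of 0.72. MGP (ENSG00000111341.9, chromosome 12, 14881181 to 14885926), the matrix Gla protein that inhibits calcification, had 0.332, 0.519 and 0.270 CPM in WT libraries 1 to 3 and 4.47, 72.4 and 83.7 CPM in NS1 libraries 1 to 3 (log2 fold change 7.12, SE 1.06, adjusted p 0.000363), with wide spread among NS1 libraries and WT values under 1 CPM. MGP shares exon positions with C12orf60. VCAN, the proteoglycan versican, changed by 1.95 (SE 0.65), the collagen crosslinking oxidases LOXL1 and LOXL2 by 1.79 (SE 0.58) and 1.33 (SE 0.21), and FBN1, the microfibril protein fibrillin-1, by 1.30 (SE 0.17). The most abundant member, fibronectin FN1, was not called (0.23, adjusted p 0.702). Of 18 collagens 5 (3 to 7) were called higher and 3 (1 to 3) lower, beside 13.6% and 14.5% of all genes. The basement membrane collagen COL18A1 changed by 1.42 (SE 0.23), and COL17A1, a hemidesmosome collagen (-3.10), COL6A1 (-0.39) and COL6A2 (-0.48), chains of a microfibrillar collagen, were lower. COL4A4, a basement membrane chain, had 0, 0.0742 and 0 CPM in WT and 0.728, 6.81 and 5.65 in NS1 libraries, at least 16.3-fold higher against 3 counts in the least deep WT library (adjusted p 0.00102). Higher collagen calls were 3 without NS1 library 2 or WT library 2. VCAN lost its call without NS1 library 1 or WT library 1, 2 or 3 (adjusted p 0.0646 to 0.199). LOXL1 lost its call without NS1 library 2 or 3 or WT library 2 or 3 (adjusted p 0.0778 to 0.121). LOXL1 had a log2 fold change of 2.94 without WT library 1. COL17A1 had a log2 fold change of -4.24 without NS1 library 1. COL6A2 lost its call without NS1 library 2 or 3 or WT library 2 or 3 (adjusted p 0.074 to 0.126).

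Of 23 cell attachment genes 5 (4 to 7) were called higher and 5 (2 to 6) lower, beside 13.6% and 14.5% of all genes. ITGA6 (ENSG00000091409.15, chromosome 2), the alpha chain of the hemidesmosome receptor that anchors epithelial cells, had 431, 637 and 633 CPM in WT libraries 1 to 3 and 153, 152 and 124 CPM in NS1 libraries 1 to 3 (log2 fold change -1.99, SE 0.18, adjusted p 1.12e-05), and every NS1 value lay below every WT value. ITGAV, the alpha chain of receptors for vitronectin, was higher by 1.599 (SE 0.24) and the laminin chain LAMA1 by 2.52 (SE 0.26). Lower calls were 3 without NS1 library 3 or WT library 3. Of 18 matrix proteases and inhibitors 4 (3 to 6) were higher and 3 (0 to 6) lower. The collagenases MMP1 and MMP13 changed by -5.51 (SE 1.56) and 2.59 (SE 0.61). PLAUR, the urokinase receptor, changed by -1.45 (SE 0.35), the metalloproteinase ADAM12 by 1.46 (SE 0.23), ADAMTS5 by 1.76 (SE 0.23), and the inhibitor TIMP2 by 0.88 (SE 0.14). AP-1 letters (TGANTCA) stood in 2 of 9 promoters of that list found in the table (22.2%) and in 3.92% of those of genes tested. Without WT library 2 the lower protease calls were 1. MMP1 lost its call without NS1 library 1 or 2 or WT library 2 (adjusted p 0.0524 to 0.0618). MMP1 had a log2 fold change of -6.17 to -6.12 without NS1 library 3 or WT library 1. MMP13 had a log2 fold change of 1.73 to 3.28 without NS1 library 1 or WT library 1.

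Of 14 mesenchymal markers tested, 6 (4 to 7) were called higher and 2 (2 to 3) lower, beside 13.6% and 14.5% of all genes. TAGLN, the actin-binding protein transgelin, had 50, 103 and 104 CPM in WT libraries 1 to 3 and 363, 583 and 599.6 CPM in NS1 libraries 1 to 3 (log2 fold change 2.60, SE 0.29, adjusted p 5.84e-05), TPM1 (tropomyosin) changed by 1.76 (SE 0.14) and the transcription factor SNAI1 by 2.63 (SE 0.33). The intermediate filament gene VIM, changed by -1.30 (SE 0.19). Of 13 epithelial junction genes 3 (2 to 6) were higher, DSP (desmoplakin) among them at 19.9, 20.2 and 24.6 CPM in WT libraries 1 to 3 and 142, 226 and 189 CPM in NS1 libraries 1 to 3 (log2 fold change 3.11, SE 0.20, adjusted p 1.07e-06) and CLDN1 (claudin-1) at a log2 fold change of 1.38. Urothelial differentiation genes gave 4 (0 to 5) of 9 higher and 1 (0 to 2) lower. GATA3, a luminal urothelial transcription factor, had 44.9, 22.5 and 22.1 CPM in WT libraries 1 to 3 and 104, 60.3 and 69.8 CPM in NS1 libraries 1 to 3 (log2 fold change 1.38, SE 0.32, adjusted p 0.00638) with an untreated difference of -0.11 (adjusted p 0.871). FOXA1 (0.97) and ELF3 (2.65), both known in that programme, were higher too, and FABP4, a PPARG-regulated lipid carrier, lower (-0.97). ELF3 had 3.13, 1.85 and 1.08 CPM in WT libraries 1 to 3 and 3.48, 17.6 and 19.5 CPM in NS1 libraries 1 to 3. UPK2, of the same list, was not called (-0.02, adjusted p 0.984). Of 9 keratins 3 (1 to 6) were higher and 1 (0 to 2) lower, KRT80 (1.90) and KRT7 (1.16) with the higher ones, and KRT19 changed by 1.31 (SE 0.22). By library number 1, 2 and 3 the keratin medians with inducer were -0.34, 1.30 and 1.55. In the libraries numbered 1, KRT7 (2767 CPM in WT and 2543 CPM in NS1) and KRT80 (23.1 and 18.5 CPM) were not higher in NS1 cells. KRT19 was higher there (197 CPM in WT and 392 CPM in NS1). KRT80 lost its call without NS1 library 2 or 3 or WT library 2 or 3 (adjusted p 0.059 to 0.075). KRT7 lost its call without NS1 library 2 or 3 or WT library 2 or 3 (adjusted p 0.0813 to 0.0901).

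NRF2 targets, the antioxidant and detoxification genes, were higher, 13 (4 to 14) of 22, with medians of 0.47 with inducer and 0.08 untreated. HMOX1 (ENSG00000100292.17, chromosome 22), which degrades haem, had 28.6, 50.3 and 50.5 CPM in WT libraries 1 to 3 and 256, 136 and 162 CPM in NS1 libraries 1 to 3 (log2 fold change 2.10, SE 0.28, adjusted p 0.000171). The iron store subunit FTH1 had 3332, 4846 and 4992 CPM in WT libraries 1 to 3 and 13320, 11560 and 13420 CPM in NS1 libraries 1 to 3 (log2 fold change 1.54, SE 0.21, adjusted p 0.000232), and the top 10 genes of a library took 8.72% to 9.08% of counts in NS1 and 5.99% to 6.68% in WT libraries with inducer. NQO1, a quinone reductase, changed by 0.89 (SE 0.17) and the reductase AKR1C1 by 2.12 (SE 0.44), though AKR1C genes are near-identical copies and their counts are uncertain. GCLM, a subunit of the glutathione synthesis enzyme, was not called (-0.03, adjusted p 0.876). No gene of the list was called in edgeR's unblocked interaction test, where 10 had an unadjusted p under 0.05 and DESeq2 called 4. With the replicate block within each line 12 were called higher, beside 6.98% of all genes. ARE letters (TGACNNNGC) stood in 4 of 16 promoters (25%) and 11.9% of those of genes tested. The list of the aryl hydrocarbon receptor, a sensor of planar aromatic compounds, had 7 genes tested, AHR and ARNT themselves among them. Of these, NQO1, which is also in the NRF2 list, and ALDH3A1 (2.76) were called higher. The target TIPARP was not called (-0.25, adjusted p 0.141). ALDH3A1 lost its call without NS1 library 3 or WT library 2 or 3 (adjusted p 0.0613 to 0.0802). ALDH3A1 had a log2 fold change of 4.95 without WT library 1.

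Lysosome and autophagy genes had 9 (2 to 11) of 30 called higher and 1 (1 to 2) lower. The protease cathepsin D, CTSD (ENSG00000117984.14, chromosome 11), had 436, 593 and 604 CPM in WT libraries 1 to 3 and 1154, 1436 and 1619 CPM in NS1 libraries 1 to 3 (log2 fold change 1.37, SE 0.18, adjusted p 0.00016). PSAP, the precursor of sphingolipid activators, changed by 1.26 (SE 0.28) and the autophagy receptor SQSTM1 by 1.17 (SE 0.24), while the galactosidase GLA was lower (-0.81). With the replicate block within each line 12 of 30 were called higher relative to the untreated lines, beside 6.98% of all genes. In edgeR's unblocked test none was called, with 6 at an unadjusted p under 0.05 and 1 call by DESeq2. Over all 17775 genes tested 2196 had an unadjusted p under 0.05 in that test, and DESeq2 called 377.

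Of 22 genes of the ATF4 stress response, which covers stress regulators and the synthesis and transport of amino acids, 10 (3 to 14) were called lower and 2 (0 to 3) higher, with medians of -0.68 and, untreated, -0.51. Asparagine synthetase, ASNS, had 38.9, 57.0 and 53.8 CPM in WT libraries 1 to 3 and 14.5, 17.5 and 16.4 CPM in NS1 libraries 1 to 3 (log2 fold change -1.63, SE 0.19, adjusted p 8.29e-05). The serine synthesis enzymes PHGDH, PSAT1 and PSPH changed by -1.19 (SE 0.20), -1.21 (SE 0.25) and -1.30 (SE 0.15). SLC7A5, the large amino acid transporter, changed by -0.81 (SE 0.22), and STC2, a secreted glycoprotein, was higher (1.14). Without WT library 2 or 3 the lower calls were 6. Of 18 unfolded protein response genes 5 (1 to 7) were lower, XBP1 (-0.90) and PDIA4 (-0.79) among them, while the chaperone HSPA5 was not called (-0.08, adjusted p 0.728). Heat shock genes gave 3 (0 to 3) lower and 2 (0 to 2) higher of 14, with the mitochondrial co-chaperonin HSPE1 at -0.59; lower calls were 1 without NS1 library 2 or 3. STC2 lost its call without NS1 library 2 or 3 or WT library 1 (adjusted p 0.06 to 0.0853).

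Lipid genes were lower, 12 (6 to 12) of 23 fatty acid genes and 7 (2 to 11) of 24 cholesterol genes called lower, with 2 (0 to 1) and 1 (0 to 2) higher. The fatty acid list had medians of -0.39 with inducer and -0.23 untreated. For the cholesterol list the untreated median was the lower one, -0.495 against -0.36 with inducer. Untreated, 7 fatty acid genes and 4 cholesterol genes were called lower. ELOVL6, which lengthens fatty acids, changed by -1.01 (SE 0.15), the desaturase FADS2 by -0.94 (SE 0.12) and FASN, the fatty acid synthase, by -0.87 (SE 0.16). FADS1 and FADS2 share exon positions. HSD17B7, an enzyme of cholesterol synthesis, changed by -0.97 (SE 0.17) and NSDHL, another, by -0.72 (SE 0.12). Cholesterol gene calls were 4 lower without NS1 library 1. Glycolysis had 4 (0 to 6) of 24 lower, PGK1 (-0.62) among them. Lower glycolysis calls were 2 without NS1 library 2 or WT library 2 and 1 without WT library 3. Hypoxia targets had 6 (1 to 7) of 21 higher and 1 (0 to 3) lower. Higher calls were 3 without NS1 library 2 or 3, and lower calls 3 without WT library 1.

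Transcripts of the mitochondrial genome had negative medians in both states, -0.64 with inducer and -0.86 untreated over 13 genes, 5 (1 to 13) of them called with inducer. Taken by library number, NS1 minus WT medians with inducer were 0.01, -0.67 and -1.24 for numbers 1, 2 and 3. The median near 0 for number 1 covered genes that went both ways. In the libraries numbered 1 with inducer, MT-CYB was lower in NS1 cells (666 CPM in WT and 475 CPM in NS1). MT-ND1 was higher there (311 CPM in WT and 496 CPM in NS1). MT-CO3, a subunit of cytochrome oxidase, had 1029, 1057 and 1479 CPM in WT libraries 1 to 3 and 588, 438 and 494 CPM in NS1 libraries 1 to 3 (log2 fold change -1.23, SE 0.25, adjusted p 0.00265). Without WT library 3 the calls were 3. Mitochondrial messages can have near-identical nuclear copies, so their counts depend on how such reads were assigned. The nuclear genes of oxidative phosphorylation gave 5 (0 to 3) of 34 lower and 4 (1 to 4) higher, with ATP5F1A at 0.56 and ATP5MC1 at -0.58, and lower calls were 1 to 3 whichever single library was left out.

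Of 46 ribosomal protein genes 12 (1 to 17) were called higher, with medians of 0.28 with inducer and 0.31 untreated. In the interaction edgeR with or without the block and DESeq2 called 0 of them, and 0 had an unadjusted p under 0.05 in edgeR's unblocked test. RPS12 changed by 0.70 (SE 0.13) and RPL4 by 0.61 (SE 0.13). Calls were 4 without NS1 library 3 or WT library 2, and 3 without WT library 3. Ribosome biogenesis genes, which build ribosomes in the nucleolus, had medians of -0.13 with inducer and 0.19 untreated, with 9 (2 to 9) of 30 called lower. TCOF1, the treacle protein, changed by -0.82 (SE 0.10) and DKC1, dyskerin, by -0.72 (SE 0.14). With the replicate block within each line 15 of 30 were called lower relative to the untreated lines, beside 7.06% of all genes. In edgeR's unblocked test none was called, with 12 at an unadjusted p under 0.05 and 3 calls by DESeq2. Calls with inducer were 3 without NS1 library 2 and 4 without WT library 1. Of 27 proteasome and SCF ligase genes, the machinery that the degron uses, 8 (1 to 8) were lower and 3 (1 to 3) higher. The scaffold CUL1 changed by -0.68 (SE 0.12) and SKP1, the adaptor, by 0.38. Lower calls in that list were 1 without NS1 library 2 or WT library 2, 2 without NS1 library 3 or WT library 3, and 3 without WT library 1. SKP1 lost its call without NS1 library 1 or WT library 3 (adjusted p 0.0534 to 0.0655).

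Several secreted factors and receptors changed more than 4-fold. IGFBP5 (ENSG00000115461.5, chromosome 2), which binds insulin-like growth factors, had 2.09, 9.20 and 7.29 CPM in WT libraries 1 to 3 and 229.8, 731 and 597 CPM in NS1 libraries 1 to 3 (log2 fold change 6.45, SE 0.59, adjusted p 1.22e-05), with an untreated difference of 6.56. IRS2, an insulin receptor substrate, had 11.7, 14.7 and 14.5 CPM in WT libraries 1 to 3 and 35.7, 78.7 and 86.7 CPM in NS1 libraries 1 to 3 (log2 fold change 2.30, SE 0.29, adjusted p 0.00012) and IGF1R changed by 0.99 (SE 0.18). ESM1 (ENSG00000164283.13, chromosome 5), the endothelial cell-specific molecule endocan, had 17.2, 98.6 and 87.4 CPM in WT libraries 1 to 3 and 0.520, 1.14 and 0.913 CPM in NS1 libraries 1 to 3 (log2 fold change -6.37, SE 0.88, adjusted p 0.000217) and an untreated difference of -2.51. Among EGF family ligands AREG (amphiregulin) changed by -2.39 (SE 0.54) and HBEGF by 0.97 (SE 0.22), of 7 genes with 3 (0 to 3) lower and 1 (0 to 1) higher calls. PDGFRB, a platelet-derived growth factor receptor, had 2.94, 1.33 and 1.53 CPM in WT libraries 1 to 3 and 4.26, 13.8 and 17.4 CPM in NS1 libraries 1 to 3 (log2 fold change 2.52, SE 0.61, adjusted p 0.00796) and an untreated log2 fold change of 0.02 (adjusted p 0.989). PDGFB, its ligand, changed by 2.25 (SE 0.46). Of 17 receptor tyrosine kinases tested 7 (1 to 7) were called higher. Of 14 genes of the IGF axis 4 (3 to 6) were higher and 1 (1 to 4) lower, and of 20 angiogenic factors 6 (2 to 8) and 5 (3 to 8). The AP-1 and immediate-early list had 4 (2 to 4) higher and 4 (2 to 7) lower of 16, FOSL2 (1.10) and JUND (0.78) opposite to FOSL1. Of 10 tryptophan and kynurenine genes 2 (0 to 3) were higher, IDO1 (2.17) and KMO (1.46), and 3 (1 to 3) lower, KYNU (-2.45) among them. Without NS1 library 1 or 3, or WT library 2 or 3, the lower calls among EGF ligands were 1. IDO1 lost its call without WT library 2 or 3 (adjusted p 0.0525 to 0.0552). IDO1 had a log2 fold change of 3.06 without WT library 1. KYNU lost its call without WT library 3 (adjusted p 0.0512). KYNU had a log2 fold change of -3.10 without NS1 library 1.

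Of 16 imprinted genes 4 (2 to 5) were higher and 5 (4 to 6) lower, and the genes with the lowest log2 fold change over the whole table at a mean of at least 5 CPM were PEG10 and SGCE of chromosome 7. PEG10 (ENSG00000242265.5, chromosome 7, 94656325 to 94669695), a retrotransposon-derived placental gene, had 145, 108 and 119 CPM in WT libraries 1 to 3 and 0.0520, 0 and 0 CPM in NS1 libraries 1 to 3, and SGCE (ENSG00000127990.18, chromosome 7), epsilon-sarcoglycan, had 19.04, 20.5 and 21.9 CPM in WT libraries 1 to 3 and 0, 0 and 0 CPM in NS1 libraries 1 to 3. No NS1 library with inducer held more than 3 counts of either, so PEG10 was at least 475-fold lower and SGCE at least 78.2-fold lower, against 3 counts in the least deep library of the group. Both genes share exon positions, and both were also called lower untreated (adjusted p 4.62e-09 and 9.92e-07). PPP1R9A (-1.51) and GRB10 (-1.24), also on chromosome 7, were lower as well, and CDKN1C on chromosome 11 higher.

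Of the 12 highest and 12 lowest called log2 fold changes over the whole table, at a mean of at least 5 CPM and with no overlap between the groups, 10 and 11 were also called that way untreated. RTN1 (ENSG00000139970.17, chromosome 14), a reticulon of the endoplasmic reticulum, had 0.142, 0 and 0.0901 CPM in WT libraries 1 to 3 and 17.8, 17.8 and 21.0 CPM in NS1 libraries 1 to 3, at least 69.9-fold higher in NS1 cells against 3 counts in the least deep WT library, and an untreated log2 fold change of 6.87 (adjusted p 5.14e-08). KCTD16 (5.06, SE 0.53), the metalloprotease TLL1 (4.80, SE 0.38), the basement membrane protein FRAS1 (4.77, SE 0.45) and the carboxypeptidase CPZ (4.57, SE 0.61) were among the highest. HOXA7, a homeobox gene, had 14.9, 13.3 and 12.1 CPM in WT libraries 1 to 3 and 0.260, 0.262 and 0.747 CPM in NS1 libraries 1 to 3 (log2 fold change -5.03, SE 0.33, adjusted p 1.72e-06), TFAP2C, a transcription factor, changed by -4.47 (SE 0.25) and GFPT2, an enzyme of hexosamine synthesis, by -3.81 (SE 0.30). FZD8, a WNT receptor, had 84.8, 126 and 132 CPM in WT libraries 1 to 3 and 14.0, 9.52 and 11.1 CPM in NS1 libraries 1 to 3 (log2 fold change -3.29, SE 0.22, adjusted p 1.72e-06), and SLPI, a secreted protease inhibitor, and AOX1, aldehyde oxidase, changed by -2.97 (SE 0.49) and -2.90 (SE 0.47). HOXA7 had a log2 fold change of -5.63 without NS1 library 3.

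The difference between the lines also varied by chromosome, and in the same way with and without inducer. Genes on chromosome 7 had a median log2 fold change of -0.41 with inducer and -0.41 untreated, and 328 of its 854 genes tested (38.4%) were called lower and 37 higher. Chromosome 17 had a median of -0.24 (28.1% called lower), chromosome 11, which holds HRAS, -0.20 (24.9%), and chromosome 22 -0.21 (20.9%). At the other end, chromosome 18 had a median of 0.27 (34.6% called higher) and chromosome 10 of 0.22 (26.9%). In windows of 10 megabases with at least 20 genes, all 15 of chromosome 7, all 12 of chromosome 11, all 9 of chromosome 17 and all 5 of chromosome 22 had a negative median with inducer, and all 14 of chromosome 4 and all 8 of chromosome 15 a positive one. Of 270 windows 235 had the same sign with and without inducer. Chromosome 10 was mixed, its windows running from -0.72 to 0.65.

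Library 1 stood apart in this measure. On chromosomes 9, 12 and 16 the median log2 ratio of NS1 to WT library 1 was -0.32, -0.23 and -0.29 with inducer, and between 0.03 and 0.07 for libraries 2 and 3. Against the mean of all 12 libraries, NS1 library 1 had medians of -0.24, -0.21 and -0.23 on these chromosomes and the untreated NS1 library 1 had -0.21, -0.17 and -0.25, while WT libraries 1 lay between 0.04 and 0.08. Their part in the results was not tested. With the median of its chromosome taken from each gene, a step chosen after seeing the data, the list medians were -0.98 for DNA replication, -0.89 for mitosis, -0.70 for ERK output, 0.92 for TGF-beta targets and 0.38 for NRF2 targets. Others moved by over 1.5 times or turned, among them the RAS and MAP kinase core (0.15 to 0.28), receptor tyrosine kinases (0.27 to 0.47), ribosome biogenesis (-0.13 to -0.24), NF-kB targets (-0.07 to -0.18), p53 targets (-0.10 to -0.20) and the integrin and laminin list (-0.12 to 0.14). In all 14 of 46 lists did so, and the interferon-stimulated list went from -0.107 to 0.000.

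Set beside the untreated comparison, which uses the other 6 libraries, part of the calls with inducer were already there. Without treatment 968 genes were called higher (5.45%) and 1254 lower (7.05%). Of the genes higher with inducer 765 (31.5%) were higher untreated and 1 was lower, and these made up 79.0% of the genes higher untreated. Of those lower with inducer 902 (34.9%) were lower untreated and 1 was higher, 71.9% of the genes lower untreated. Taken without sign, log2 fold changes had a median of 0.31 with inducer and 0.24 untreated. Of the calls seen with inducer alone, 586 of 1660 higher and 741 of 1678 lower were also called in that direction in the interaction test with a replicate block within each line, which called 1240 genes higher (6.98%) and 1255 lower (7.06%) in all. Without the block the interaction was called for 4 genes, and 2196 had an unadjusted p under 0.05.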

How the data were processed

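Gene counts of 12 RNA-seq libraries were deposited by the authors as 1 table of 60603 genes with whole-number counts. The submitters' processing notes name STAR 2.7.3a, featureCounts 1.6.4 and hg38; the annotation, the strand setting and the treatment of reads with several positions are not given in the sources used here, so overlapping, antisense and near-identical genes may share reads. Totals ran from 10593934 to 20266996 counts per library, and 26519 genes had no count. Symbols came from the reference table (60261 genes), and chromosomes by gene ID from GENCODE 29 (58518 genes, start and end printed only where the ID version is the same).

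All 12 libraries were fitted with edgeR 4.0.16 (R 4.3.3, limma 3.58.1; filterByExpr, TMM, quasi-likelihood, 1 mean per group), which kept 17775 genes. The contrasts were NS1 against WT with inducer, the same untreated, and their interaction, called at an adjusted p of 0.05. SE is the log2 fold change over the root of F. The floor for a gene without counts is 3 counts in the least deep library of the group. Alternatives were other scalings (DESeq2 size factors, library totals), other filters, the 6 libraries alone, a replicate block, DESeq2 1.42.0, and leaving out each replicate number or library.

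Deviations of same-numbered untreated and treated libraries of a line all correlated above 0.1 (r of 0.752, 0.385 and 0.256 in WT, 0.713, 0.386 and 0.384 in NS1), and an interaction fit with a block within each line, chosen after seeing the data, stands beside the interaction. Libraries 2 and 3 correlated about as well across numbers (0.367 and 0.248 in WT, 0.371 and 0.278 in NS1), so what the numbers set apart is library 1. The members and gene lists were chosen with earlier results of these data known, so lists are described by counts and medians only. Named were HRAS and NRAS, up to 4 called members per list by size of change, its most abundant member, members where a list split or was not called, and the 12 highest and 12 lowest called genes at a mean of at least 5 CPM without overlap between the groups. Not every gene that rule allows is printed, and some genes it fixes are not reported here. Genes whose call held with any single library left out were preferred among further members. Promoters are RefSeq sequences of GRCh38.p14, matched by symbol.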

Additional observations from a re-analysis of the deposited data

Results flagged for a closer look

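For 4 genes the difference between the lines itself differed with and without inducer in edgeR's unblocked interaction test. FILIP1L, known as an inhibitor of cell migration, stood at 3.99, 5.12 and 6.57 CPM in WT libraries and 17.7, 17.3 and 17.1 in NS1 libraries with inducer, and at 6.38 ± 0.555 and 6.32 ± 0.897 CPM (SD, n = 3) untreated. The interaction was 1.78 on the log2 scale (adjusted p 0.0423). BMF stood at 1.42 ± 0.0577 and 2.63 ± 0.300 CPM untreated, and its interaction was 3.17 (adjusted p 0.0423). FABP4 was higher in untreated NS1 cells (log2 fold change 1.06, adjusted p 0.00182) and lower with inducer (-0.97, adjusted p 0.00156), with an interaction of -2.04 (adjusted p 0.0255). ZWINT, a kinetochore gene, had an interaction of -0.86 (adjusted p 0.0423), with 72.5, 75.6 and 74.2 CPM in WT and 48.5, 51.1 and 46.2 CPM in NS1 libraries with inducer. With the replicate block within each line the 4 estimates were 1.84, 3.21, -2.06 and -0.87 for FILIP1L, BMF, FABP4 and ZWINT, all with an adjusted p under 0.05.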

How the results depend on the processing

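With inducer the 5007 calls ranged from 1632 to 6007 over the fits that left out a library or a replicate number (819 to 2983 higher, 813 to 3024 lower), and the calls of at least 2-fold from 899 to 1795. The lowest were without the libraries numbered 2. Deviations of same-numbered libraries of the lines correlated weakly (r of 0.153, 0.12 and 0.00601 with inducer, 0.136, 0.0719 and 0.19 untreated). Across numbers r ran from -0.164 to 0.114 with inducer and from -0.148 to -0.0186 untreated. A replicate block gave 6670 calls, which included 5004 of the 5007. Untreated, the 2222 calls were 3908 with a replicate block and 182 to 3466 with replicates left out. The 4 interaction calls were 7 with DESeq2 size factors, 683 without a filter on low counts, 35 with at least 10 counts in every library with inducer, 634 with a replicate block, 2495 with a replicate block within each line, 377 with DESeq2, and 0 to 573 with a library or replicate left out. The cause was not tested. Library totals moved the median of all genes from -0.004 to -0.080.

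Several genes not called changed sign when a library or replicate number was left out. The log2 ranges were -0.155 to 0.222 for CCND1, -0.266 to 0.232 for CDKN1A, -0.143 to 0.525 for FN1, -0.387 to 0.462 for OAS2, -0.145 to 0.148 for HLA-B, -0.273 to 0.081 for NFKBIA, -0.158 to 0.059 for GCLM and -0.219 to 0.011 for HSPA5. Scaling by library totals gave -0.049 for CDKN1A and -0.086 for OAS2, for which no low-count filter gave -0.005 and a replicate block -0.096. Calls were fewer among genes of low abundance: 16.8% of 1200 genes under a mean of 1 CPM were called, and 33.4% of 2068 over 100 CPM.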
